A study of Bos grunniens and Bos grunniens x Bos taurus with 12 samples.

Results

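Smooth muscle contractile genes were followed in testis by Ribo-seq, which sequences the short mRNA fragments that translating ribosomes protect from nuclease. A total of 10 gene symbols were looked up in the deposited tables: ACTA2, ACTG2, MYH11, MYL9, TPM1, TPM2, CNN1, TAGLN, LMOD1 and DES. For 9 of them 1 row each was found among 20965 genes, of which 13662 had a symbol. TPM1 matched no symbol. A row without a symbol, ENSBGRG00000003979, is described in the tables as a tropomyosin alpha-1 chain and is given below as values outside the 9 genes.

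The 12 libraries came from the testes of 3 yaks of 6 months (juvenile stage), 3 yaks of 18 months (puberty), 3 yaks of 4 years (sexual maturity) and 3 cattle–yaks that the labels also place at 4 years and sexual maturity. The cattle–yak is the hybrid of Jersey cattle bulls and Gannan yak cows (Bos grunniens x Bos taurus), and its reads were aligned to the yak genome. The methods of the study describe only the 4-year yaks and the cattle–yaks, and state that these yaks were euthanized and cattle–yaks were castrated. The labels give castration for all animals, so if the collection differed it cannot be told apart from the genotype. Total counts on genes were 25816963 to 37167651 per library at 6 months, 21309151 to 24542362 at 18 months, 16304058 to 17862516 in the 4-year yaks, and 38437889 to 52616039 in the cattle–yaks.

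In smooth muscle, a thick filament of myosin heavy chain MYH11 with its regulatory light chain MYL9 pulls on thin filaments of the actins ACTA2 and ACTG2, along which the tropomyosins TPM1 and TPM2 run. CNN1 (calponin) and TAGLN (transgelin) bind the actin filament, LMOD1 starts its assembly, and DES (desmin) builds the intermediate filaments that link dense bodies to the membrane. In testis these genes mark the peritubular myoid cells, the flattened contractile cells that wrap each seminiferous tubule and push sperm along it, and the muscle of arteriole walls.

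All 9 genes were read in each of the 12 libraries, with the lowest count being 33 footprints for LMOD1 in a yak of 4 years. Summed over the 9 genes, FPKM (footprints per kilobase of effective gene length, scaled to the library total) was 350, 544 and 439 at 6 months and 764, 801 and 1738 at 18 months. The sum was 459, 400 and 412 in the 4-year yaks, and 1619, 2261 and 1476 in the cattle–yaks. The cattle–yak libraries were all above the libraries of both the 6-month and the 4-year yaks, and at 18 months replicate 3 stood within the cattle–yak range while the other two did not. The share of the 9 genes in all FPKM of a library was at most 0.055% in 6-month yak, 0.168% in 18-month yak and 0.046% in 4-year yak, and reached 0.222% in cattle–yak. The libraries are of whole testis, so fewer cells of a type and less RNA per cell cannot be told apart in any result below.

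The libraries of the 18-month yaks stood apart from each other. Summed FPKM of 7 spermatid markers was 2.86, 7379 and 17.5 in their replicates 1, 2 and 3, against 10024 to 12851 in the 4-year yaks, 1.41 to 1.70 at 6 months and 2.98 to 32.8 in cattle–yak. Fold changes against the 18-month yaks are therefore followed by their values without single libraries of that group.

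**Figure D1:**
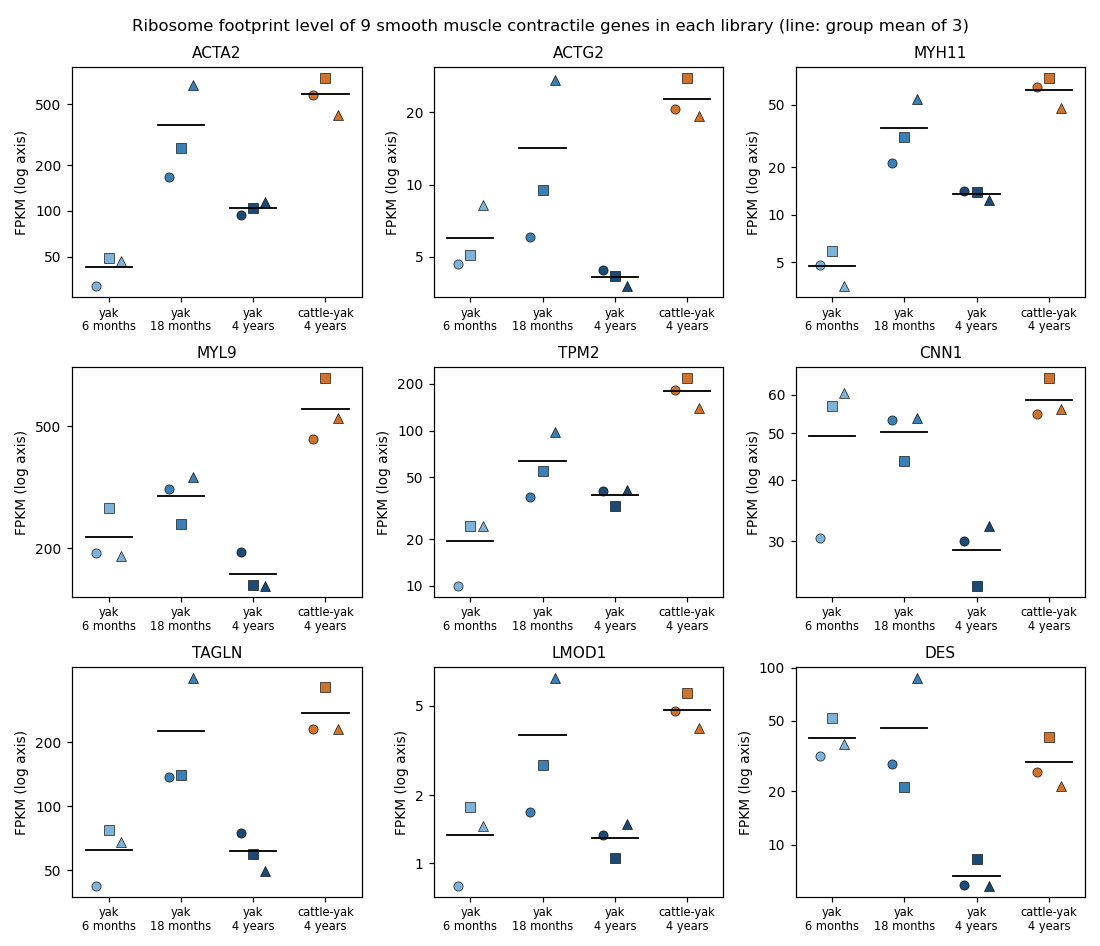
FPKM (log axis) of the 9 contractile genes in each of the 12 libraries, with circles, squares and triangles for replicates 1, 2 and 3 and a line for the group mean of 3. For all 9 genes the cattle–yak libraries lie above those of the 4-year yaks, and the 18-month triangle is the highest of its group for each gene, though for CNN1 replicates 1 and 3 are nearly level (53.2 and 53.6).

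The smooth muscle actins were more abundant in cattle–yak than in yak of the same labelled age. ACTA2 (ENSBGRG00000017216), the alpha actin of vascular and peritubular smooth muscle, had an FPKM of 32.0, 49.4 and 46.9 in the 6-month yaks, 167, 259 and 667 in the 18-month yaks, 93.9, 105 and 115 in the 4-year yaks, and 579, 746 and 424 in the cattle–yaks. The ranges were apart between 6 months, 4 years and 18 months, in this rising order, and those of the 18-month yaks and cattle–yaks overlapped. ACTG2 (ENSBGRG00000010869), the gamma actin of enteric smooth muscle, read 4.68, 5.10 and 8.25 at 6 months, 6.02, 9.48 and 27.3 at 18 months, 4.42, 4.15 and 3.76 in the 4-year yaks, and 20.7, 27.9 and 19.4 in the cattle–yaks. Its lowest group was thus the 4-year yak, apart from the 6-month yak, whose range overlapped that of 18 months. In cattle–yak relative to 4-year yak, ACTG2 rose by 2.47 ± 0.200 (log2 fold change ± SE, n = 3 and 3, edgeR adjusted p = 1.61e-05), and ACTA2 was likewise higher in 3 of 3 libraries than in any yak of that age. The actins are nearly identical as proteins. Where their coding sequences match, short footprints may be shared among ACTA2, ACTG2, ACTA1, ACTB and ACTG1. How far they match was not checked, so their split by the counting is uncertain.

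Both thick filament genes were highest in cattle–yak and next highest in the 18-month yak by group mean. MYH11 (ENSBGRG00000024236), the smooth muscle myosin heavy chain, had an FPKM of 4.80, 5.86 and 3.50 at 6 months, 21.4, 31.1 and 54.4 at 18 months, 14.2, 14.0 and 12.3 in the 4-year yaks, and 64.9, 74.1 and 47.5 in the cattle–yaks. As for ACTA2, the 6-month yaks were lowest and apart from the 4-year yaks, which were apart from the 18-month yaks. MYL9 (ENSBGRG00000014570), the light chain whose phosphorylation switches on contraction, had an FPKM of 194, 271 and 189 at 6 months, 311, 239 and 340 at 18 months, 194, 151 and 150 in the 4-year yaks, and 453, 718 and 533 in the cattle–yaks. Here the 3 ages of yak overlapped with their neighbours in the order, and only the cattle–yaks stood apart. Both genes rose in cattle–yak against 4-year yak, MYH11 by 2.21 ± 0.188 (edgeR adjusted p = 2.13e-05) and MYL9 by 1.75 ± 0.193 (8.99e-05) on the log2 scale.

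TPM2 and CNN1, whose proteins lie on the actin filament, were both higher in cattle–yak than in 4-year yak. TPM2 (ENSBGRG00000004079), the beta tropomyosin, had an FPKM of 9.92, 24.5 and 24.2 at 6 months, 37.6, 54.6 and 97.7 at 18 months, 40.8, 32.5 and 41.6 in the 4-year yaks, and 183, 219 and 139 in the cattle–yaks. Every cattle–yak library exceeded every yak library, the 18-month yaks included. CNN1 (ENSBGRG00000013580), which slows the myosin ATPase on actin, had an FPKM of 30.5, 56.9 and 60.6 at 6 months, 53.2, 43.8 and 53.6 at 18 months, 30.0, 24.2 and 32.3 in the 4-year yaks, and 54.7, 65.0 and 56.2 in the cattle–yaks. The cattle–yak was above the 18-month and 4-year yaks in each library and overlapped the 6-month yaks, whose libraries spread from the level of the 4-year yak to that of the cattle–yak. The log2 fold change of cattle–yak over 4-year yak was 2.25 ± 0.198 for TPM2 and 1.05 ± 0.146 for CNN1 (edgeR adjusted p = 2.58e-05 and 0.000338). The call of CNN1 rested on its fold, which fell to 1.0 without 4-year yak replicate 2 and to 0.98 without cattle–yak replicate 2, both below the limit of 1 before rounding.

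TAGLN (ENSBGRG00000025309), an early marker of smooth muscle differentiation, had an FPKM of 42.0, 77.6 and 68.0 at 6 months, 137, 140 and 404 at 18 months, 75.1, 59.4 and 49.6 in the 4-year yaks, and 233, 365 and 231 in the cattle–yaks. Its 6-month and 4-year ranges overlapped, as did those of the 18-month yak and cattle–yak, and the 2 pairs were apart. LMOD1 (ENSBGRG00000025951), a nucleator of actin filaments, was the least abundant at 0.79 to 1.77 at 6 months, 1.69 to 6.67 at 18 months, 1.05 to 1.49 in the 4-year yaks, and 3.99 to 5.69 in the cattle–yaks. In the row described as tropomyosin alpha-1, FPKM was 281, 301 and 283 in the 4-year yaks and 610, 638 and 593 in the cattle–yaks, a log2 fold change of 1.11 ± 0.110 (edgeR adjusted p = 4.87e-05), with 427 to 493 at 6 months and 424 to 620 at 18 months.

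DES (ENSBGRG00000020017) followed a different order. FPKM of this intermediate filament gene was 31.6, 52.1 and 37.0 at 6 months, 28.6, 21.1 and 87.7 at 18 months, 5.88, 8.27 and 5.82 in the 4-year yaks, and 25.7, 40.4 and 21.3 in the cattle–yaks. The 4-year yaks were below all 9 other libraries, and the remaining groups overlapped. In cattle–yak DES rose by 2.14 ± 0.269 over the 4-year yak (log2 fold change ± SE, edgeR adjusted p = 0.00019), and TAGLN and LMOD1 rose by 2.18 ± 0.236 and 1.91 ± 0.254.

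As a list, 9 of 9 genes were called higher in cattle–yak than in 4-year yak, at an adjusted p below 0.05 with a log2 fold change of at least 1, where 17.1% of the 16498 genes tested were called higher. Their median log2 fold change was 2.18, and the median over all genes tested was 0.00. In all 9 every cattle–yak library had a higher FPKM than every 4-year yak library, which held for 34.3% of genes. The markers of other cell types changed in the same comparison. Between these groups all 7 spermatid markers were called lower, as were 27% of genes, with a median of -9.56. Called higher were 4 of 6 Sertoli, 8 of 9 fibroblast and matrix and 3 of 3 Leydig markers, with medians of 1.52, 1.35 and 2.50. These are the markers tested, since only 3 of 8 Leydig and 7 of 11 Sertoli symbols matched a row. Of 8 spermatogonia markers 4 were called higher (median 1.01), and of 8 spermatocyte markers 2 lower (median -0.73). Of 7 macrophage markers 1 was called higher and 2 lower (median -0.11). Called higher were also 2 of 9 pericyte and vessel wall markers (RGS5 and PDGFRB, with the list median at 0.69). So was 1 of 9 endothelial markers (TIE1, median 0.76), and VWF fell by 2.39. In FPKM, the cattle–yak range was above that of the 4-year yak for 7 of the 9 pericyte and vessel wall markers and below for 0. For the endothelial markers it was above for 3 and below for 2. PDGFRB and TIE1, like RGS5 and VWF, were named after their values were seen. Their part in the higher level of the contractile genes was not tested.

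**Figure D2:**
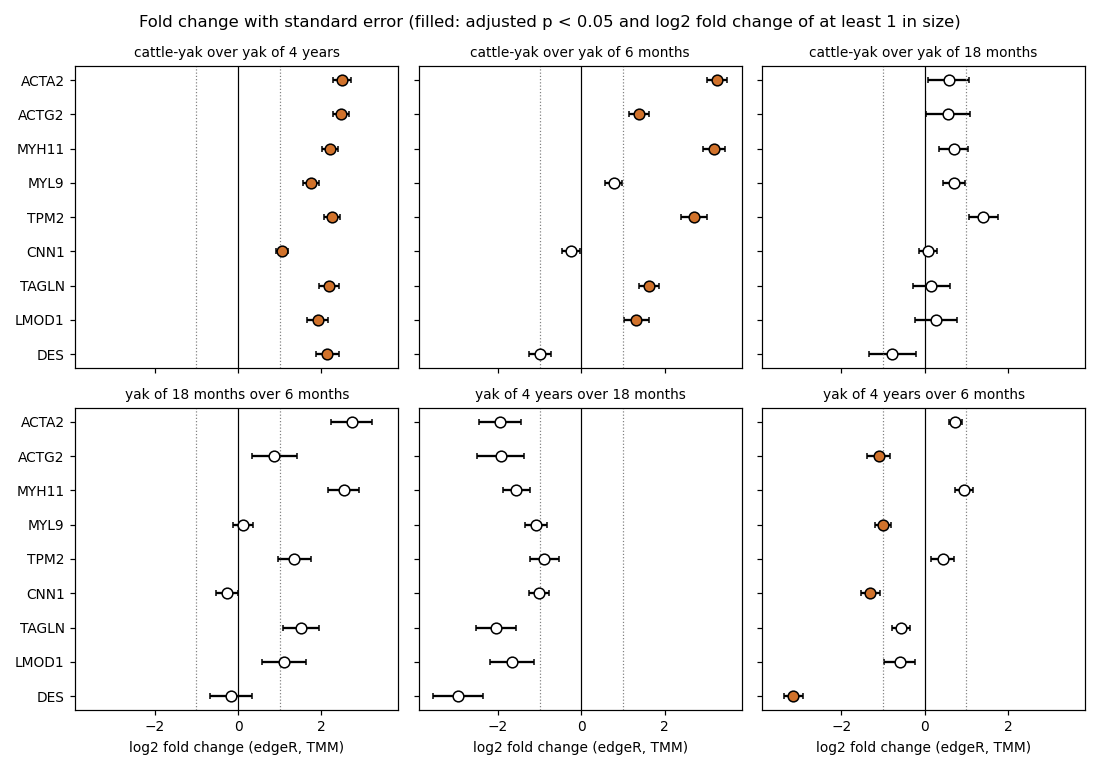
Log2 fold change of the 9 genes in the 6 pairwise comparisons (edgeR, TMM scaling), with bars of 1 standard error, filled points for called genes and dotted lines at -1 and 1. All 9 points are filled in cattle–yak over 4-year yak and 6 in cattle–yak over 6-month yak, and none in the 3 comparisons with 18-month yak, where the bars are widest.

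The age series in yak compared juvenile, pubertal and mature testes. Between 6 and 18 months, 0 of 9 genes were called by edgeR, where 0.0672% of the 14874 genes tested were called. The log2 fold changes were 2.72 ± 0.481 for ACTA2 (adjusted p = 0.0588) and 2.53 ± 0.366 for MYH11 (adjusted p = 0.0533), followed by TAGLN at 1.51 ± 0.436, TPM2 at 1.35 ± 0.402 and LMOD1 at 1.10 ± 0.536. For 4 genes (ACTA2, MYH11, TPM2 and TAGLN) all 18-month libraries were above all 6-month libraries in FPKM, as for 29.7% of genes. DESeq2 and the edgeR fit on all 12 libraries each called these 4 higher, against backgrounds of 6.99% and 10.8%, and limma on log2(FPKM + 1) called 0. ACTA2 was at 3.01 without 18-month replicate 1, 2.93 without replicate 2 and 1.99 without replicate 3, and passed the call only in the first case (adjusted p = 0.0129). MYH11 passed without replicate 1 (2.73, adjusted p = 0.0117) and without replicate 2 (2.65, adjusted p = 0.0499), and was at 2.13 without replicate 3. Without replicate 3 TAGLN was at 0.86, TPM2 at 0.94 and LMOD1 at 0.41, none called. The other 4 genes had smaller values, at 0.87 ± 0.535 for ACTG2 (0.04 without 18-month replicate 3), 0.11 ± 0.242 for MYL9, -0.27 ± 0.266 for CNN1 and -0.17 ± 0.503 for DES (-0.97 without replicate 3), and with library size alone as the scaling the values of CNN1 and DES turned to 0.05 and 0.19. None of the cell type markers was called either, with medians of 3.42 for 8 spermatocyte and -1.60 for 9 fibroblast and matrix markers, and their part in these values was not tested.

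Between 18 months and 4 years the log2 fold changes were negative for all 9 genes, and again 0 of 9 passed with edgeR, where 0.0371% of 16175 genes were called. The log2 fold changes ran from -0.89 ± 0.341 for TPM2 to -2.96 ± 0.592 for DES, with edgeR adjusted p from 0.0691 to 0.128. Every 4-year library lay below every 18-month library for 8 of the 9, TPM2 being the exception, where 23.4% of genes showed this. DESeq2 and the fit on all 12 libraries each called 7 lower, against 12.5% and 14% of genes, and limma called 0. Without 18-month replicate 2, the library with spermatid markers, 8 were called lower and the background rose to 18.5%. In that fit ACTA2 was at -2.14 (adjusted p = 0.00576), TAGLN at -2.30 (0.00212) and DES at -3.29 (0.000532). Without 18-month replicate 1 or replicate 3, 0 were called. The values without replicate 3 were smaller, with ACTA2 at -1.22, TAGLN at -1.40, ACTG2 at -1.10, LMOD1 at -0.96 and DES at -2.16, against -1.95, -2.05, -1.94, -1.67 and -2.96 with all 3 libraries. The spermatid markers, at 10024 or above at 4 years and at 17.5 or below in the remaining pair of 18-month libraries, moved with this comparison, and their part in it was not tested.

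Over the whole span from 6 months to 4 years the sign of the change differed among the contractile genes. DES fell by 3.15 ± 0.217 on the log2 scale (edgeR adjusted p = 2.29e-06), CNN1 by 1.31 ± 0.226 (0.000702), ACTG2 by 1.11 ± 0.269 (0.00503) and MYL9 by 1.0 ± 0.186 (0.0011), so that 4 of 9 were called lower, where 24.7% of 16133 genes were. The call of DES was kept in all 9 alternatives and in the 6 fits with 1 library left out. That of CNN1 was lost in 3 alternatives, that of ACTG2 in 4 and without 6-month replicate 3 (-0.85), and that of MYL9 in 6 and without 6-month replicate 2 (-0.88) or 4-year replicate 2 (-0.92) or 3 (-0.94). ACTA2 at 0.73 ± 0.156 (0.00237) and MYH11 at 0.94 ± 0.205 (0.00267) passed the p but not the fold, MYH11 being called higher in 5 of the 9 alternatives (1.02 with DESeq2) and without 6-month replicate 1 or 2 or 4-year replicate 3, and TAGLN stood at -0.57 ± 0.225, LMOD1 at -0.60 ± 0.372 and TPM2 at 0.43 ± 0.279. In FPKM, the ranges of ACTA2, MYH11 and TPM2 at 4 years were above those at 6 months, as for 53.1% of genes, and those of ACTG2 and DES were below, as for 23.3%. This comparison depended on the scaling, since the median log2 fold change of all genes was 0.08 with TMM and 0.64 with library size alone. With library size alone 2 genes were called higher (ACTA2 at 1.29 and MYH11 at 1.52), where 40.9% of genes were, and 1 lower (DES), where 15.5% were. In that fit CNN1, ACTG2 and MYL9 were at -0.77, -0.55 and -0.44. With limma on log2(FPKM + 1) 3 were called higher and 1 lower, against 29% and 10.5% of genes. All 7 spermatid and 7 of 8 spermatocyte markers were called higher over the same span, with medians of 12.29 and 4.69, where 5009 of 16133 genes were called higher. Of the somatic markers 8 of 9 fibroblast and matrix, 3 of 3 Leydig, 7 of 9 endothelial, 4 of 6 Sertoli and 4 of 9 pericyte and vessel wall markers fell, with medians of -4.34, -4.56, -1.95, -1.74 and -0.95. Their part in the changes of the contractile genes was not tested. The value of LMOD1 turned to 0.01 with limma on log2(FPKM + 0.1).

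The cattle–yak was also set beside the younger yaks, where age and genotype differ together and cannot be told apart. The comparisons share the cattle–yak libraries with the one above. Against 6-month yak, 6 of 9 genes were called higher, where 18.1% of 15571 genes were: ACTA2 at 3.25 ± 0.244, MYH11 at 3.18 ± 0.258, TPM2 at 2.70 ± 0.309, TAGLN at 1.62 ± 0.241, ACTG2 at 1.39 ± 0.241 and LMOD1 at 1.32 ± 0.295, with edgeR adjusted p from 2.82e-05 to 0.00527. MYL9 was at 0.77 ± 0.199, CNN1 at -0.25 ± 0.206 and DES at -0.99 ± 0.256 (edgeR adjusted p = 0.0106). The call of DES turned on the limit of the fold, since it was called lower with upper quartile factors (-1.04), with a replicate block (-1.03) and without 6-month replicate 1 (-1.08), 6-month replicate 3 (-1.07) or cattle–yak replicate 2 (-1.30), where 19.7% of genes were called lower with TMM. With library size alone MYL9 was called higher at 1.30, where 31.3% of genes were, and CNN1 turned to 0.27. In the same comparison 6 of 8 spermatocyte and 5 of 8 spermatogonia markers rose (medians of 4.07 and 1.69), while 8 of 9 fibroblast and matrix, 6 of 9 endothelial, 6 of 7 macrophage, 4 of 9 pericyte and vessel wall and 2 of 3 Leydig markers fell (medians of -2.0, -1.70, -1.54, -0.50 and -1.77), and their part was not tested. The ranges of 7 genes, MYL9 included, were above those of the 6-month yak, as for 50.8% of genes. Against 18-month yak 0 of 9 passed, where 5.8% of 15702 genes were called and the median of all genes was -0.13. The lowest adjusted p of the 9 here were those of TPM2 at 1.40 ± 0.346 (edgeR adjusted p = 0.0608) and MYL9 at 0.70 ± 0.264 (0.139). The ranges of MYL9, TPM2 and CNN1 were above, as for 24% of genes. DESeq2 and the fit on all 12 libraries each called TPM2 higher (6.19% and 5.34% of genes), limma called 0, and TPM2 was also called without 18-month replicate 3, at 1.84. ACTA2 at 0.57 ± 0.497 and TAGLN at 0.16 ± 0.454 had errors close to or above their values. Without 18-month replicate 3 ACTA2 was at 1.33, MYH11 at 1.12, ACTG2 at 1.43 and TAGLN at 0.83 (adjusted p from 0.0622 to 0.131), and without replicates 1 and 2 in turn ACTA2 was at 0.28 and 0.34, so the difference from the 18-month yak was not detectable with these libraries for these genes.

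Ratios within a library do not depend on how libraries are scaled to each other, and they showed the genes that kept step with ACTA2. FPKM of MYH11 was 0.114 ± 0.0379 times that of ACTA2 at 6 months (SD, n = 3), 0.110 ± 0.0247 at 18 months, 0.130 ± 0.0224 in the 4-year yaks, and 0.108 ± 0.00735 in the cattle–yaks, and the ranges of the 4 groups overlapped. ACTG2 was at 0.103 to 0.176 of ACTA2 at 6 months and at 0.0326 to 0.0471 in all 9 other libraries. CNN1 read nearly level with ACTA2 at 6 months, with ratios of 0.953, 1.15 and 1.29, and was at 0.318, 0.169 and 0.0803 at 18 months, 0.319, 0.230 and 0.280 in the 4-year yaks, and 0.0945, 0.0871 and 0.133 in the cattle–yaks. The cattle–yaks were thus below both the 6-month and the 4-year yaks in this ratio, and the 18-month yaks spread from the cattle–yak level to that of the 4-year yak. DES over ACTA2 went from 0.788 to 1.06 at 6 months to 0.0816 to 0.171 at 18 months, 0.0505 to 0.0785 in the 4-year yaks, and 0.0443 to 0.0542 in the cattle–yaks. MYL9 over ACTA2 was 5.19 ± 1.04 at 6 months, 1.10 ± 0.692 at 18 months, 1.60 ± 0.406 in the 4-year yaks, and 1.0 ± 0.239 in the cattle–yaks.

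**Figure D3:**
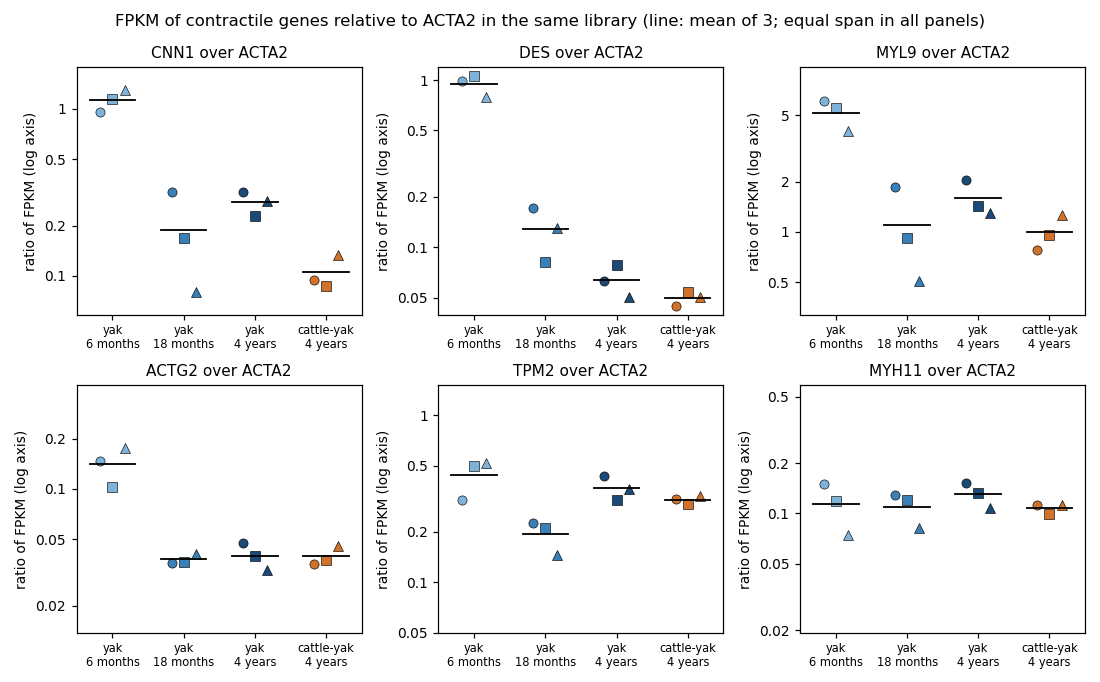
FPKM of 6 contractile genes relative to ACTA2 in the same library (log axis, equal span in all panels), with symbols for replicates as above and a line for the mean of 3. The 6-month libraries lie above all others for CNN1, DES, MYL9 and ACTG2, whereas the 4 groups overlap for MYH11.

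Smooth muscle isoforms were also set against their non-muscle relatives. MYH11 made up 2.34%, 2.75% and 1.38% of the summed FPKM of MYH9, MYH10, MYH11 and MYH14 at 6 months, 10.9%, 26.0% and 29.5% at 18 months, 42.0%, 41.2% and 39.0% in the 4-year yaks, and 60.6%, 59.7% and 55.6% in the cattle–yaks. No range overlapped another, in the order 6 months, 18 months, 4 years and cattle–yak. MYH9, the non-muscle heavy chain of many cell types, was at 165 to 193 FPKM at 6 months, 67.7 to 144 at 18 months, 7.39 to 9.72 in the 4-year yaks, and 22.9 to 32.6 in the cattle–yaks. ACTA2 and ACTG2 together were 0.823% to 0.971% of the actins at 6 months, 2.37% to 8.05% at 18 months, 3.18% to 4.52% in the 4-year yaks, and 4.96% to 7.84% in the cattle–yaks, the rest being almost wholly ACTB and ACTG1. MYL9 over its relative MYL6 was 0.151 ± 0.0206 in the 4-year yaks, and 0.326 ± 0.0437 in the cattle–yaks, and CNN1 over CNN2 was 1.99 ± 0.243 and 2.23 ± 0.159, with overlapping ranges for CNN1 over CNN2. DES over VIM, vimentin being the intermediate filament of most mesenchymal cells and of Sertoli cells, was lower in cattle–yak (0.0360 to 0.0482) than at 4 years (0.0660 to 0.0939), as VIM itself rose by 3.11 ± 0.215 on the log2 scale.

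Relative to other somatic cells of the testis, the difference between cattle–yak and 4-year yak was smaller. The summed FPKM of the 9 genes was 0.780, 0.742 and 0.646 times that of the Sertoli, pericyte, endothelial, fibroblast and Leydig lists together in the 4-year yaks, and 0.867, 0.860 and 0.805 times in the cattle–yaks. In 6-month yak this ratio was 0.0629 to 0.0873, and at 18 months it was 0.265, 0.612 and 0.906. The cattle–yak range was above that of the 4-year yak in this ratio, by 1.17 times on the mean. On the log2 scale this was 0.22, and 0.39 with counts in place of FPKM. Such sums weigh abundant genes most. In both groups ACTA2, MYL9 and TAGLN had the largest shares of the contractile sum. By single lists, the ratio to Sertoli markers was 2.46 to 3.49 in the 4-year yaks, and 3.40 to 4.72 in the cattle–yaks, which overlapped. The ratio to fibroblast and matrix markers overlapped as well, at 1.93 to 2.64 and 2.59 to 3.12, and so did that to Leydig markers, whose mean was lower in cattle–yak (2.15 ± 0.139 against 3.06 ± 1.42). To pericyte and vessel wall markers it was 5.92 to 6.37 against 10.4 to 14.0, and to endothelial markers 13.1 to 18.1 against 48.1 to 55.0. With 3 libraries a group the two-sided exact permutation test cannot go below p = 0.1, which 67 of the 108 tests of 18 ratios in 6 comparisons reached, with an adjusted p of 0.161.

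**Figure D4:**
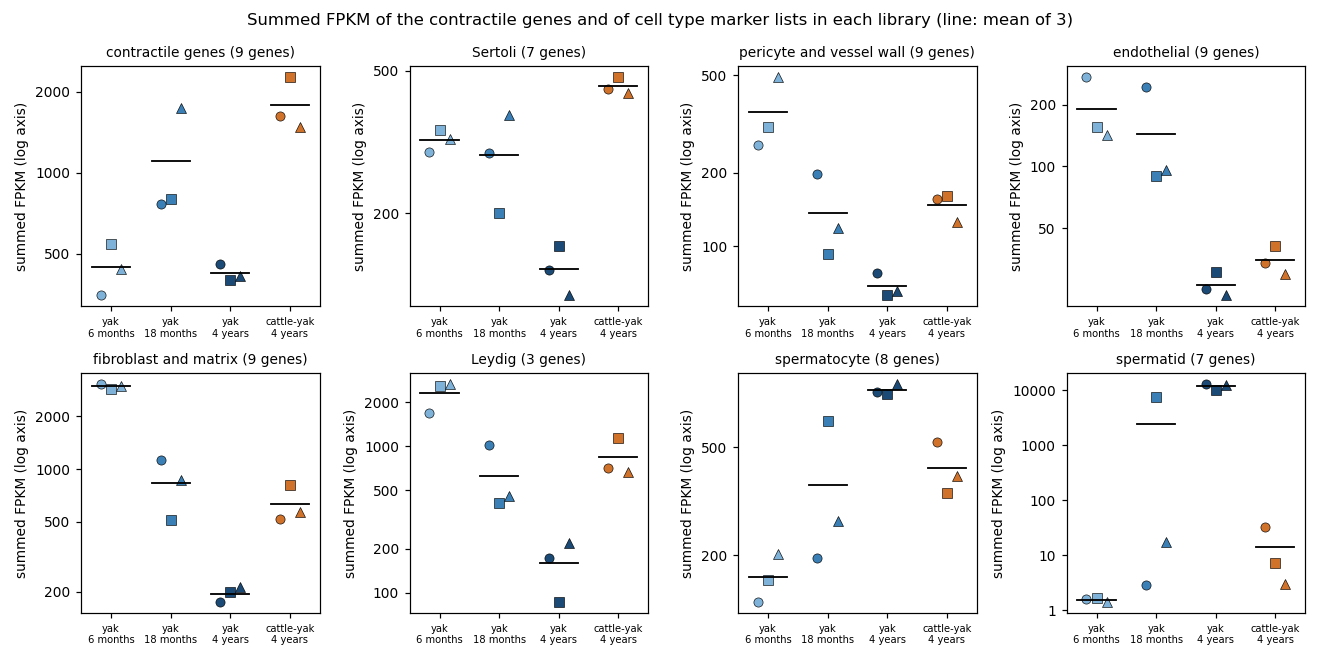
Summed FPKM (log axis, with its own span in each panel) of the 9 contractile genes and of 7 lists of cell type markers in each library, with a line for the mean of 3. The contractile sum of cattle–yak (1476 to 2261) is above that of the 4-year yak (400 to 459), as are the Sertoli, pericyte, fibroblast and Leydig sums, while the spermatid sum is at 32.8 or below in cattle–yak and at 10024 or above at 4 years.

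Other genes of contraction were counted from lists. Of the transcription regulators of smooth muscle genes, 8 were tested and 2 were higher and 1 lower in cattle–yak than in 4-year yak, with a median of 0.57. Among all genes tested 17.1% were called higher and 27% lower, which is the background for each list here. In the counts of these lists, genes that were higher or rose and lower or fell are those called. MYOCD (myocardin), the coactivator that switches on the contractile programme together with SRF, had 5 footprints in each 6-month library and an FPKM of 0.34, 0.67 and 1.0 at 18 months, 0.22, 0.20 and 0.26 in the 4-year yaks, and 0.60, 1.01 and 0.55 in the cattle–yaks. It rose by 1.73 ± 0.392 in cattle–yak over 4-year yak (edgeR adjusted p = 0.00472), whereas SRF stood at 0.25 ± 0.177 (0.245) and its other coactivator MRTFA at 0.80 ± 0.141, under the limit of the fold. The other calls were FHL2 at 2.83 and KLF4 at -1.39, named after their values were seen.

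Of 11 genes of contraction control, 3 were called higher and 0 lower, with a median of 0.68. These were MYLK, the kinase that phosphorylates MYL9, at 1.54 ± 0.133, and PPP1CB and ARHGEF1, named after their values were seen, at 1.45 and 1.49. In FPKM, the cattle–yak range was above that of the 4-year yak for 7 of the 11 genes, as for 34.3% of all genes, and below for 2. The inhibitor of myosin phosphatase PPP1R14A was at -0.65 ± 0.191 and the phosphatase subunit PPP1R12B at 0.17 ± 0.164, neither called. Of 14 genes of filament anchorage 9 rose and 0 fell, with a median of 1.35, among them CSRP1 by 1.83 ± 0.152, TGFB1I1 by 1.61 ± 0.301, VCL (vinculin) by 1.59 ± 0.141, FLNA (filamin A) by 1.53 ± 0.202, SYNPO2 by 1.40 ± 0.263 and SMTN (smoothelin) by 1.30 ± 0.140. SYNM (synemin), a partner of DES, was at -0.61 ± 0.437 and overlapped between the groups.

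Of 8 calcium and membrane genes 4 rose and 1 fell, with a median of 0.94. KCNMB1, the smooth muscle subunit of the large calcium-activated potassium channel, had an FPKM of 0.70, 0.53 and 0.69 at 6 months, 1.15, 4.15 and 6.26 at 18 months, 2.86, 3.13 and 2.94 in the 4-year yaks, and 7.67, 8.24 and 8.28 in the cattle–yaks, and rose by 1.45 ± 0.237 in the last over the 4-year yak. ITPR1, RYR2 and KCNAB1 also rose, by 1.39, 1.16 and 1.89, and CASQ2 fell by 4.53, all named after their values were seen. Of 8 tested receptors for contraction and relaxation, 2 rose (AGTR1 by 1.42 and AVPR1A by 2.64) and 2 fell (ADRA1D by 5.31 and GUCY1B1 by 1.89), also named after their values were seen, with a median of 0.02. CASQ2 and ADRA1D read 1.35 and 1.38 in 18-month replicate 2, the library with spermatid markers, and at most 0.02 in the other libraries of that age. EDNRA, an endothelin receptor of contractile cells, was at 0.58 ± 0.220 and had an FPKM of 251 to 287 at 6 months, 103 to 175 at 18 months, 36.2 to 43.9 in the 4-year yaks, and 39.5 to 72.3 in the cattle–yaks. Of the 11 non-muscle relatives 6 were called higher and 0 lower, with a median of 1.06. For 10 of the 11 every cattle–yak library was above every 4-year yak library in FPKM, as for 34.3% of genes. The 6 were ACTB at 1.88 ± 0.143, MYH9 at 1.60 ± 0.180, ACTG1 at 1.14 ± 0.143 and TAGLN2 at 1.06 ± 0.189 beside VIM, and MYH14 at 1.27, the last named after its value was seen. MYH10 was at 0.61 ± 0.149 and not called.

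**Figure D5:**
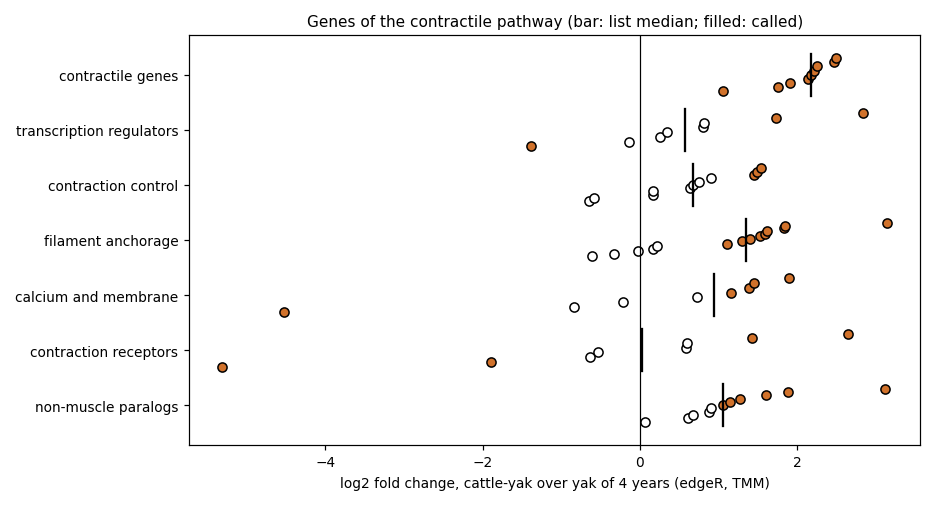
Log2 fold change in cattle–yak over 4-year yak of each tested gene in the contractile list and 6 lists of related genes, with filled points for called genes and a bar for the list median. The bar of the 9 contractile genes is at 2.18, and those of the other lists lie between 0.02 and 1.35.

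Between 6 months and cattle–yak, MYOCD and KCNMB1 rose by 3.10 ± 0.499 and 3.11 ± 0.329, whereas EDNRA fell by 2.79. MYOCD was near the floor at 6 months, with a mean FPKM of 0.06, so the size of its rise is uncertain. Their lists did not rise as a whole. Of 8 transcription regulators 2 were called higher and 0 lower (median -0.02), where 18.1% of genes were higher. Of 7 calcium and membrane genes 2 were higher and 2 lower (median -0.2), with KCNMA1, named after its value was seen, at -2.59. Of 7 receptors 0 were higher and 4 lower (median -2.53). In that comparison filament anchorage had 0 genes higher and 5 lower of 14, where 19.7% of genes were lower, with a median of -0.54 beside 1.39 for the 9 contractile genes and -0.02 for all genes. Markers of striated muscle were looked up as well, and 14 matched. MYOG had no count in any library, CKM did not exceed 1.81 FPKM and ACTA1 did not exceed 6.64, but the sum of the list was 53.7 to 90.8 FPKM in the 4-year yaks, 21.7 to 30.8 in cattle–yak, 7.38 to 16.5 at 6 months and 14.2, 63.7 and 16.7 in 18-month replicates 1, 2 and 3. Most of the 4-year sum came from MYLPF and LMOD2. MYLPF, a light chain of fast skeletal muscle, was at 24.1 to 42.0 FPKM in the 4-year yaks, at 24.8 in 18-month replicate 2 and at 3.44 or below in the remaining libraries. LMOD2, the leiomodin of striated muscle, was at 14.3, 17.4 and 32.4 FPKM in the 4-year yaks, 9.84 to 13.4 in cattle–yak, 17.7 in 18-month replicate 2 and at most 1.36 in the remaining libraries. In the 4-year yaks both genes were above the FPKM of MYH11, ACTG2, DES and LMOD1.

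Across the 12 libraries, each gene was correlated with the mean standardised profile of the 8 others on log2 TMM-scaled CPM, as a description over libraries that share groups. Pearson's r was highest for TAGLN (0.97), LMOD1 (0.96) and ACTG2 (0.95) and lowest for CNN1 (0.57) and DES (0.53), with ACTA2 at 0.82 and MYH11 at 0.74. The same mean profile of the 9 genes was compared with 12012 genes that had a symbol and lay outside all smooth muscle lists. Genes of those lists were thus not candidates. The 8 most alike were PWP1 and CDCA7L (r = 0.979), FOXO1 (0.976), HTATSF1 and RWDD4 (0.973), SS18 (0.972), ABHD10 (0.971) and TSPYL5 (0.969). FOXO1 had a mean FPKM of 19.0 ± 3.40 at 6 months, 31.4 ± 9.24 at 18 months, 17.0 ± 1.13 in the 4-year yaks, and 46.1 ± 3.48 in the cattle–yaks.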

How the data were processed

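Ribo-seq of 12 testis libraries was analysed, each taken as 1 animal and grouped by the labels. The authors kept reads of 20 to 40 bases, removed rRNA and small RNA reads, aligned the rest to the yak genome, and deposited expected counts from RSEM as whole numbers. The deposited FPKM, also by the authors, divides them by effective length and library total. Columns of the authors' own log2 fold change, p-value and FDR were not used. For cattle–yak, the effect of aligning hybrid reads to the yak genome was not tested. The study reported a higher alignment rate and a shorter main footprint length in cattle–yak than in yak. It also gave a larger share of footprints in coding sequence for cattle–yak. The part of these differences in the comparisons was not tested.

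Counts that passed filterByExpr were given TMM factors and fitted with edgeR's quasi-likelihood test (edgeR 4.0.16, R 4.3.3) in the 6 libraries compared, with Benjamini-Hochberg adjustment over all genes tested. Calls needed a log2 fold change of 1 or more in either direction and an adjusted p under 0.05. SE was approximated as the log2 fold change over the square root of F. DESeq2 1.42.0, limma 3.58.1 on log2(FPKM + 1) or log2(FPKM + 0.1), other scalings and each library left out were alternatives. The edgeR and DESeq2 fits were tried on simulated counts with the library sizes of the cattle–yaks and 4-year yaks. Within-library ratios used FPKM and two-sided exact permutation tests. Summaries used Python 3.11.15. The 9 genes, the lists and the named genes (a fixed set of textbook members and the 8 most alike profiles) were chosen with earlier results of these data known. Lists were matched by symbol only, and unmatched members were not analysed here. P-values measure the spread between these animals and their library preparation together. No coordinates or sequences were used.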

Additional observations from a re-analysis of the deposited data

How the results depend on the processing

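In cattle–yak over 4-year yak the 9 genes were called in each of the 9 alternatives of test, scaling, filter, unit and block, and 8 to 9 were called with 1 library left out, CNN1 being lost. Calls in the comparisons with 18-month yak depended on the method. For 18 over 6 months the count went from 0 to 4 with DESeq2, 4 with all 12 libraries in 1 fit and 1 with library size alone or upper quartile factors, and from 0 to 2 with 1 library left out (2 without 18-month replicate 1, 1 without replicate 2). All of these were called higher. Among all genes, 3 of 14874 were called higher in the main fit, 104 with library size alone and 79 with upper quartile factors. Without 18-month replicate 1 it was 1344 of 15454, and without replicate 2 it was 34 of 15071. For 4 years over 18 months it was 7 with DESeq2 and with all 12 libraries, and 0 to 8 with 1 library left out (8 without 18-month replicate 2). For cattle–yak over 18 months it was 1 with DESeq2 and with all 12 libraries and 0 to 1 with 1 library left out (1 without 18-month replicate 3). In the last of these fits 297 of 16344 genes were called higher. For 4 years over 6 months it was 2 with all 12 libraries, against 4, all lower, where 3929 of 16906 and 3985 of 16133 genes were called lower. The cause was not tested. The replicate numbers were tried as a block although same-numbered libraries did not deviate together (correlations of -0.39 to 0.23). With the block 2 genes, ACTA2 and MYH11, were called at 18 over 6 months, where 235 of 14874 genes were called higher. DES was called lower in cattle–yak over 6 months at -1.03 (as with upper quartile factors, at -1.04), where the block called 2898 of 15571 genes lower. No other count of calls moved by over 1.5 times with the block.

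No call changed sign. Uncalled values that did were, for 18 over 6 months, MYL9 (-0.04 to 0.29 with 1 library left out, with -0.02 without 6-month replicate 3), CNN1 at 0.05 (library size alone) and 0.08 (limma, both pseudocounts), and DES at 0.19 (library size alone) and -0.97 to 0.18 with 1 library left out (0.01 without 18-month replicate 1). For 4 years over 6 months LMOD1 was at 0.01 (limma, pseudocount 0.1). For cattle–yak over 6 months CNN1 was at 0.27 (library size alone), 0.30 and 0.31 (limma). For cattle–yak over 18 months CNN1 was at -0.03 (upper quartile), and with 1 library left out CNN1 was at -0.09 to 0.25, TAGLN at -0.13 to 0.83, LMOD1 at -0.02 to 1.0 and DES at -1.15 to 0.04, with -0.02 for CNN1 and -0.10 for TAGLN without cattle–yak replicate 2 and -0.03 for TAGLN without 18-month replicate 1. The log2 ratio of the 9 genes to the 5 somatic lists, cattle–yak over 4-year yak, was 0.22 in FPKM and 0.39 in counts.

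With 3 libraries a group, fold changes against the 18-month yak had standard errors up to 0.592 on the log2 scale. LMOD1 at 33 to 43 footprints a library in 4-year yak was the least precisely counted.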
